A study of Rattus norvegicus with 16 samples.

Results

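The osteochondrogenic genes of vascular calcification are described here as 9 genes of rat: Runx2, Sox9 and Msx2 (transcription factors), Bmp2 and Bmp4 (secreted ligands), Spp1 and Mgp (matrix proteins), and Alpl and Enpp1 (enzymes of pyrophosphate turnover). They were taken by symbol, 9 of the 32883 Ensembl genes in the deposited expression table. The cells were primary aortic vascular smooth muscle cells kept in full medium with 20% serum. Over 48 h they were exposed either to an adenovirus encoding an shRNA that targets Nat10 (knockdown) or to a control adenovirus (control). Input RNA came from 3 knockdown and 3 control libraries, and RNA fragments pulled down with an antibody against N4-acetylcytidine (ac4C) came from as many. A further 3 libraries held RNA bound to the NAT10 protein (NAT10 RIP), and their titles name no virus. The non-IP total RNA library was not analysed here. The submitters call the replicates biological repeats, and no label ties them to separate animals, so each p-value reflects the spread of these libraries alone, which may be technical. The cells are a primary culture in serum, with no added phosphate or other calcifying medium named in the labels.

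NAT10 is the acetyltransferase that places ac4C on RNA. In artery walls that calcify, smooth muscle cells can lose contractile proteins and take up part of the programme of bone and cartilage cells. Bone morphogenetic proteins act through type I and type II receptors and SMAD proteins, and MSX2, RUNX2 and SOX9 are transcription factors of that programme. Mineral growth is held back by pyrophosphate, which ENPP1 makes and the alkaline phosphatase ALPL cleaves, and by the matrix Gla protein MGP. Mice that lack Mgp calcify their arteries. SPP1 (osteopontin) is a phosphoprotein that binds mineral and is also secreted by smooth muscle cells in culture.

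RUNX2 binds DNA through its Runt domain, and Spp1 is a textbook target of it in bone cells. The promoters of both genes are shown because Spp1 is the member with the smallest p below and Runx2 encodes the factor. Promoters were the 250 bases before each transcript start in RefSeq, build GRCr8, in which 5 of the 9 members matched, with 6 promoters in all. The letters AACCACA or AACCGCA, on either strand, occurred in 2 of the 6, and in 5.76% of 33469 rat promoters of that length. They are in capitals in the sequences, read 5′ to 3′ on the gene's strand. The match starts 127 bases before the Spp1 start and 77 bases before that Runx2 start, and the second Runx2 promoter held none.
Spp1, chr14:5619805-5620054, minus strand: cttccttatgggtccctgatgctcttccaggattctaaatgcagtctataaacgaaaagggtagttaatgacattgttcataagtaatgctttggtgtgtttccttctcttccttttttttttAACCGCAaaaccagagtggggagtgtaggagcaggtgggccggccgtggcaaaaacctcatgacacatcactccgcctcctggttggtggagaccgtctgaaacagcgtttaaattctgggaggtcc
Runx2, chr9:23664808-23665057, plus strand: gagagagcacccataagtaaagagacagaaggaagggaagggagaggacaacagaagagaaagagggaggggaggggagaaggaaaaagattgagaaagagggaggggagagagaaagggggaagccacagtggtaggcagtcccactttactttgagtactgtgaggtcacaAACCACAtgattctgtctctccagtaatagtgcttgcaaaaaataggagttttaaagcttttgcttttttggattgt

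The values are FPKM, fragments per kilobase of gene length scaled by the authors between libraries. The fragments behind them numbered 6418216 to 7468625 in knockdown libraries and 8171278 to 12066157 in control libraries. Nat10 itself had 4.38, 3.68 and 4.58 FPKM in knockdown libraries 1 to 3, against 7.69, 9.22 and 9.95 FPKM in control libraries 1 to 3. All knockdown libraries lay below all controls, and the log2 change was -0.93 (SE 0.19), with an adjusted p of 0.227 in limma and 0.0399 with library quality weights. Those weights were largest for control libraries 2 and 3, at 3.80 and 3.57. With that pair averaged as 1 sample, the limma adjusted p of Nat10 was 0.788. No gene of 13450 passed an adjusted p of 0.05 in either direction, 0% each way, while an unadjusted p under 0.05 was reached by 5.53% as higher and 6.95% as lower. Some libraries stood apart. On the first principal component, which held 40.8% of the variance, knockdown library 2 lay at -70.0 and knockdown libraries 1 and 3 at -5.24 and 25.2, against -10.3, 30.9 and 29.5 for the controls. Control libraries 2 and 3 resembled each other most, at a median chi-square of 0.768 per gene, where other pairs gave 3.14 to 10.1 and sampling alone 0.455. Contractile smooth muscle markers moved with the groups. Of 9 on the list, 8 were tested, 7 were lower in knockdown at an unadjusted p under 0.05, and their summed level was 782 to 3627 FPKM in knockdown libraries and 4642 to 6135 FPKM in control libraries. Of 7 adventitial fibroblast markers, 3 were lower at that p, with sums of 194 to 266 FPKM in knockdown and 297 to 319 FPKM in control. The sums were 13.02 to 32.3 FPKM in knockdown and 14.4 to 24.8 FPKM in control for 8 macrophage and leukocyte markers, and 0.640 to 0.973 FPKM against 0.380 to 0.724 FPKM for 5 endothelial ones. Cldn5, of endothelial cells, was listed at 0 in all 6 libraries, and Ptprc, of leukocytes, in 5. The macrophage marker Adgre1 was at most 0.125 FPKM in knockdown and listed at 0 in control. Itgam was at most 0.0659 FPKM in knockdown and 0.0861 FPKM in control, and Lyz2 0.823 FPKM and 0.304 FPKM. The other markers on that list were higher. Cd14 had 4.33 to 10.6 FPKM in knockdown and 5.02 to 6.68 FPKM in control. Cd74 had 2.71 to 15.9 FPKM in knockdown and 3.29 to 16.0 FPKM in control. Cd68 had 7.60, 9.67 and 3.74 FPKM in knockdown libraries 1 to 3, against 2.87, 3.30 and 4.57 FPKM in control libraries 1 to 3 (log2 change 0.74, limma adjusted p 0.423). Csf1r, under the filter, was higher in every knockdown library (0.961 to 1.38 FPKM) than in every control library (0.546 to 0.788 FPKM). In bulk RNA, fewer cells of a type and less RNA per cell cannot be told apart. The part of these markers in the results below was not tested.

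The label was checked against markers of the differentiated cells. Among the osteoblast and chondrocyte markers beyond the members, Acan was expressed and the others were low. On the wider list of bone and cartilage matrix genes, 11 of 22 had a mean of at least 1 FPKM, Spp1 and Mgp among them. Sparc on that list had means of 5496 FPKM in knockdown and 7017 FPKM in control, and Col1a1 4485 FPKM and 6081 FPKM. Acan, the cartilage proteoglycan aggrecan, had 2.58, 7.13 and 7.71 FPKM in knockdown libraries 1 to 3, against 30.6, 10.4 and 10.8 FPKM in control libraries 1 to 3. The late osteoblast factor Sp7 was listed at 0 in all 3 knockdown libraries and reached 0.315 FPKM in control, and Dmp1, a protein of mature bone cells, was at most 0.401 FPKM in knockdown and listed at 0 in control. Osteocalcin (Bglap) reached 1.01 FPKM in knockdown libraries and 1.58 FPKM in control libraries, and bone sialoprotein (Ibsp) 1.42 FPKM in knockdown and 1.06 FPKM in control. The cartilage collagen gene Col2a1 reached 0.648 FPKM in knockdown and 0.211 FPKM in control, and Col9a1 was listed at 0 in all 6 libraries. Matn1 and Hapln1, also of cartilage, were at most 0.114 FPKM in knockdown and 0.0920 FPKM in control.

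The 9 levels spread widely in both groups. In knockdown libraries the order by mean level was Mgp, Spp1, Enpp1, Sox9, Runx2, Bmp4, Bmp2, Msx2 and Alpl, at means between 1085 and 0.317 FPKM. In control libraries it was Mgp, Spp1, Enpp1, Sox9, Bmp4, Runx2, Bmp2, Alpl and Msx2, at means between 1813 and 0.264 FPKM. FPKM is per length, so these orders compare genes. In knockdown libraries the ranges of neighbouring genes were apart only between Spp1 and Enpp1 and between Bmp4 and Bmp2. In control libraries the ranges overlapped only for Mgp with Spp1, Enpp1 with Sox9 and Alpl with Msx2. The SD was larger in knockdown than in control for 7 of the 9 members, as the plot of levels shows.

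**Figure D1:**
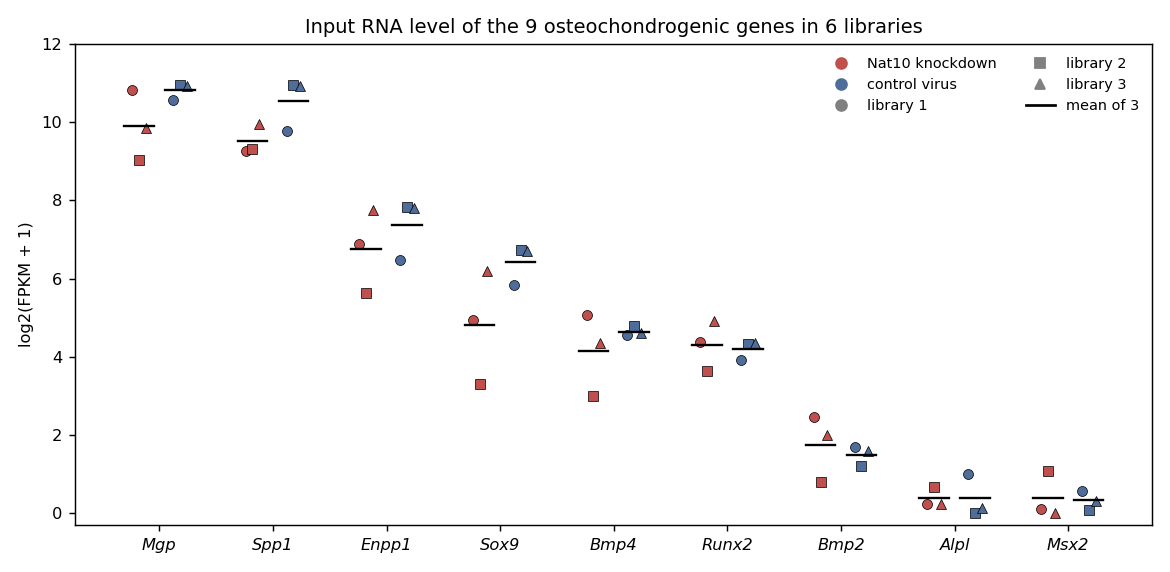
Level of each of the 9 members as log2(FPKM + 1) in every input library, with knockdown left of control for each gene, a symbol for each library number and a black line at the mean of 3. The groups overlap for all 9 genes, and knockdown library 2 (squares) is the lowest of the 6 libraries for 6 of the 7 genes that were tested.

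No member passed the test for a difference between knockdown and control, and none separated the groups. Of the 9, 7 had a mean of at least 1 FPKM over the 6 libraries and were tested. Called higher were 0 and called lower 0 at an adjusted p under 0.05 (limma, adjusted over 13450 genes), where 0% of all genes were called in each direction. At an unadjusted p under 0.05, Spp1 and Sox9 were lower and none was higher, where 6.95% of all tested genes were lower and 5.53% higher. For 0 of the 9 did the groups not overlap, against 20.6% of the 13450 tested genes. The median log2 change of the 7 tested members was -0.61, beside -0.015 for all tested genes, and 5 of the 7 estimates were negative.

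Sox9, the master factor of cartilage cells, had the largest estimate among the members. It had 29.7, 8.95 and 72.2 FPKM in knockdown libraries 1 to 3, against 56.5, 105 and 103 FPKM in control libraries 1 to 3. Knockdown libraries 1 and 2 lay below all controls, and knockdown library 3 lay above control library 1. The log2 change was -1.61 (SE 0.68, 95% interval -3.21 to -0.0090), with an adjusted p of 0.399 in limma. The estimate was -0.86 without knockdown library 2, -1.15 with control library 1 left out as well, and -2.30 without knockdown library 3, with adjusted p-values between 0.0662 and 0.825 over 16 alternatives.

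Runx2, the factor that osteoblasts require, showed no common direction. It had 19.7, 11.4 and 29.0 FPKM in knockdown libraries 1 to 3, against 14.2, 19.1 and 19.3 FPKM in control libraries 1 to 3. Knockdown libraries 1 and 3 were above every control and knockdown library 2 below every control. The log2 change was 0.10 (SE 0.33, 95% interval -0.67 to 0.88), with an adjusted p of 0.918 in limma. Leaving out knockdown library 3 gave -0.20 and leaving out control library 1 gave -0.031. It was 0.44 without knockdown library 2 and 0.30 without that library and control library 1. Msx2, a homeobox factor induced by BMP ligands, was too low to test. It had 1, 18 and 0 fragments in knockdown libraries 1 to 3, against 11, 1 and 4 fragments in control libraries 1 to 3, which is 0.0691, 1.12 and 0 FPKM against 0.484, 0.0648 and 0.244 FPKM. Most of its fragments came from knockdown library 2 and control library 1, the libraries that stood apart from their groups.

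The BMP ligands differed in level between themselves, and neither was called. Bmp4 had 32.7, 6.92 and 19.3 FPKM in knockdown libraries 1 to 3, against 22.4, 26.4 and 23.2 FPKM in control libraries 1 to 3. Knockdown library 1 was the highest of the 6, and knockdown libraries 2 and 3 were below every control. The log2 change was -0.50 (SE 0.48), with an adjusted p of 0.697 in limma. It was 0.070 without knockdown library 2, 0.024 with control library 1 left out as well, and -0.97 without knockdown library 1. Bmp2 had 4.53, 0.728 and 2.996 FPKM in knockdown libraries 1 to 3, against 2.20, 1.32 and 2.00 FPKM in control libraries 1 to 3. As for Runx2, knockdown libraries 1 and 3 were above every control and knockdown library 2 below. Its log2 change was 0.26 (SE 0.45), with an adjusted p of 0.842 in limma. It was -0.10 without knockdown library 1, 0.74 without knockdown library 2 and 0.83 without knockdown library 2 and control library 1. The control libraries spread far less than the knockdown libraries for both ligands, with Bmp4 at 19.7 ± 12.9 FPKM in knockdown and 24.0 ± 2.101 FPKM in control (SD, n = 3 each).

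The matrix genes were the most abundant members. Spp1 had 610.2, 640.1 and 999 FPKM in knockdown libraries 1 to 3, against 879.8, 1979 and 1947 FPKM in control libraries 1 to 3. Knockdown libraries 1 and 2 lay below all controls, and knockdown library 3 lay between control library 1 and the higher pair. The log2 change was -1.04 (SE 0.41, 95% interval -2.004 to -0.074), with an adjusted p of 0.379 in limma. It was -1.33 without control library 1 and knockdown library 2, and adjusted p-values lay between 0.0596 and 0.831 over 16 alternatives. The sign was negative in all of them, though other filters and a replicate block cannot move the estimate. Mgp had 1814, 520.1 and 921 FPKM in knockdown libraries 1 to 3, against 1516, 1991 and 1932 FPKM in control libraries 1 to 3. Knockdown libraries 2 and 3 were below every control and knockdown library 1 was within their range. Its log2 change was -0.91 (SE 0.47), with an adjusted p of 0.476 in limma. It was -0.48 without knockdown library 2, -1.38 without knockdown library 1, and -0.60 without control library 1 and knockdown library 2.

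Of the pyrophosphate enzymes, Enpp1, which makes pyrophosphate outside the cell, was well expressed, and Alpl, which removes it, was near 0. Enpp1 had 117, 48.5 and 214 FPKM in knockdown libraries 1 to 3, against 87.2, 227 and 223 FPKM in control libraries 1 to 3. The groups overlapped, with control library 1 between knockdown libraries 1 and 2. The log2 change was -0.61 (SE 0.59), with an adjusted p of 0.699 in limma. Leaving out knockdown library 2 gave -0.050 and leaving out knockdown library 3 gave -1.11. It was -1.07 without control library 1, -0.38 without control library 2 and -0.39 without control library 3, and -0.50 with control library 1 and knockdown library 2 both left out. Alpl had 3, 12 and 3 fragments in knockdown libraries 1 to 3, against 28, 0 and 2 fragments in control libraries 1 to 3. Its level was 0.168, 0.603 and 0.179 FPKM in knockdown, against 0.999, 0 and 0.0990 FPKM in control, and it was not tested. As for Msx2, the highest library of each group was knockdown library 2 and control library 1.

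**Figure D2:**
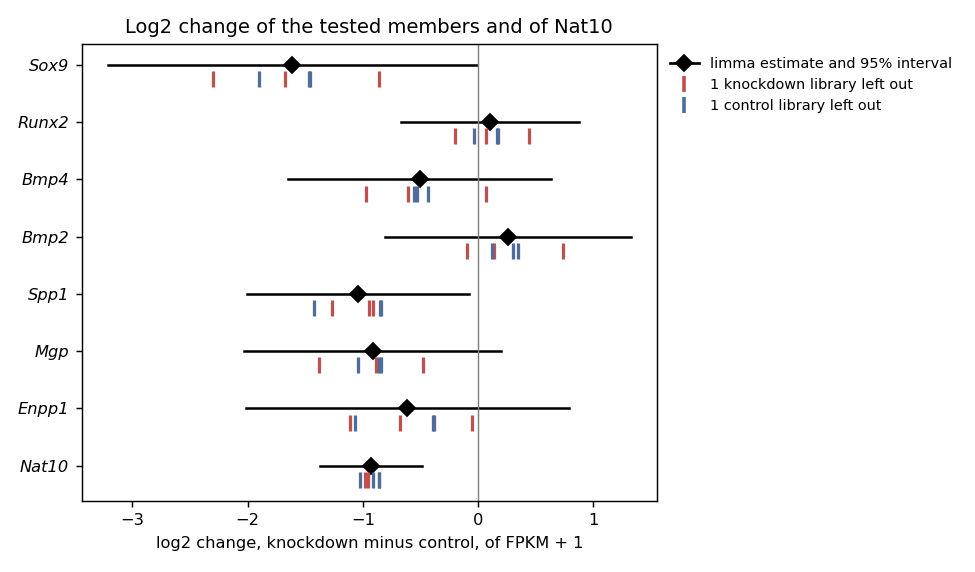
Log2 change, knockdown minus control, of FPKM + 1 for the 7 tested members and Nat10, with the limma estimate (diamond), its 95% interval (bar) and the estimates with 1 library left out (ticks). The Nat10 estimate of -0.93 has its interval and ticks on the negative side, while ticks of Runx2, Bmp2 and Bmp4 fall on both sides of 0.

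The members' values differed between libraries of the same group. Relative to the mean of the 3 controls, the median log2 deviation of the 7 tested members was 0.011, -1.66 and -0.23 in knockdown libraries 1 to 3, against -0.27, 0.15 and 0.14 in control libraries 1 to 3. Knockdown library 2 was below all 3 controls for 7 of 7 tested members and the lowest of all 6 libraries for 6, where 27.9% of all tested genes were lowest. The exception was Spp1, whose lowest library was knockdown library 1. Knockdown library 1 was above all controls for 3 members and below all for 2, and knockdown library 3 above all for 2 and below all for 2. The plot of deviations by library shows this split. Shares of all tested genes below or above all controls in a single library were not computed. The members' counts below or above all controls therefore cannot be set against such shares. Without knockdown library 2, the median log2 change of the 7 members was -0.050, and without control library 1 it was -1.04. Of the 8 tested contractile markers, 6 were lowest in knockdown library 2 and 7 highest in control library 1. Myh11 and Smtn were lowest in other knockdown libraries, and Cald1 was highest in control library 3. The share of all tested genes that were highest in control library 1 was not computed. Acta2, the smooth muscle actin, had 356, 138 and 957 FPKM in knockdown libraries 1 to 3, against 2176, 1479 and 1486 FPKM in control libraries 1 to 3.

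**Figure D3:**
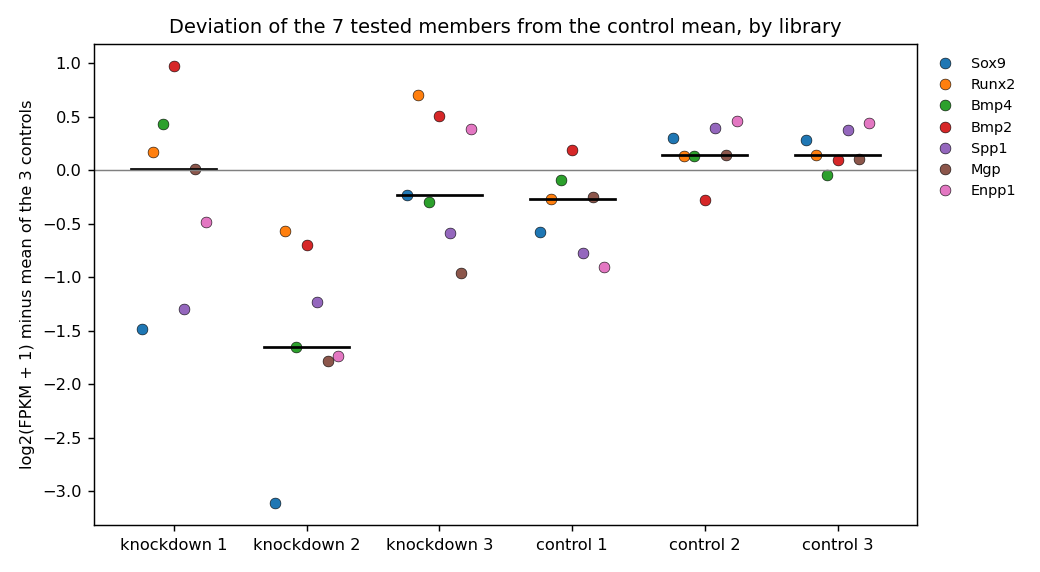
Difference of log2(FPKM + 1) from the mean of the 3 control libraries for each of the 7 tested members (coloured points) in every input library, knockdown left of control, with a black line at the median over members. Knockdown library 2 has all 7 points under 0 and a median of -1.66, while the other 5 medians lie between -0.27 and 0.15.

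The same was asked of 67 tested genes, other than the members, on 6 lists of the calcification pathway. Of these, 0 were called higher and 0 lower by limma's adjusted p. At an unadjusted p under 0.05, 2 were higher and 10 lower. Of all tested genes, 5.53% were higher and 6.95% lower at that p, shares that also apply to each list below. The groups were apart for 2 higher and 13 lower genes, where 9.63% of all tested genes were apart as higher and 10.9% as lower. Their median log2 change was -0.33, beside -0.015 for all tested genes. Unlike these figures, the counts and medians of each list below include the tested members on it. Beyond the matrix and inhibitor lists, Bmp2 and Bmp4 are among the BMP ligands. Runx2 and Sox9 are among the transcription factors, and Enpp1 is among the phosphate and pyrophosphate genes. Counts over all 13450 tested genes at that unadjusted p also moved when libraries were left out. Without knockdown libraries 1, 2 and 3 in turn, 561, 1014 and 1146 were higher and 678, 1129 and 1431 lower. Without control libraries 1, 2 and 3 in turn, 586, 365 and 356 were higher and 772, 468 and 484 lower. Without control library 1 and knockdown library 2, 995 were higher and 1083 lower. With library quality weights, which called 2.49% of all tested genes and 0 members, Chrd, Col11a1, Gdf6 and Nt5e were called lower. Those weights were largest for control libraries 2 and 3, the pair that resembled each other most. With that pair averaged as 1 sample, 0 genes of the lists were called in either direction.

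Bone and cartilage matrix genes had a list median of -0.69 over 11 tested genes, of which 4 were lower at an unadjusted p under 0.05 and 0 higher; Spp1 and Mgp are on this list. Col11a1, a chain of a minor fibrillar collagen of cartilage, had 24.4, 31.4 and 80.2 FPKM in knockdown libraries 1 to 3, against 223, 157 and 159 FPKM in control libraries 1 to 3. The groups were apart, with a log2 change of -2.13 (SE 0.43). In limma its adjusted p was 0.227, and 0.0321 once libraries were weighted by quality. For Acan, whose values are given above, control library 1 was the highest and the groups were apart (log2 change -1.36, limma adjusted p 0.363), with a log2 change of -0.88 without control library 1. The type I collagen gene Col1a2 had 81.8, 43.4 and 178 FPKM in knockdown libraries 1 to 3, against 181, 176 and 220 FPKM in control libraries 1 to 3, and the groups overlapped by a single library (log2 change -1.14, limma adjusted p 0.389). Col1a2 was at -0.66 without knockdown library 2. Of the 11, 2 were lower at that unadjusted p without control library 1 and knockdown library 2, with a list median of -0.40. Leaving out any 1 library other than knockdown library 3 also gave 2 lower, and the list median ran over -0.89 to -0.35, with -0.47 without knockdown library 1 and -0.35 without knockdown library 2.

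BMP ligands, receptors and antagonists gave 1 higher and 3 lower of 21 tested at an unadjusted p under 0.05, with a median of -0.32. Chrd encodes chordin, which binds BMPs outside the cell and blocks them. It had 1.46, 1.91 and 3.02 FPKM in knockdown libraries 1 to 3, against 5.32, 5.05 and 5.46 FPKM in control libraries 1 to 3. The groups were apart (log2 change -1.03, limma adjusted p 0.267, and 0.0453 with library quality weights). Gdf6, a BMP-family ligand, had 2.88, 0.594 and 4.34 FPKM in knockdown libraries 1 to 3, against 9.07, 9.45 and 9.63 FPKM in control libraries 1 to 3. The groups were apart there too (log2 change -1.69, limma adjusted p 0.279, and 0.0415 with library quality weights). Bmp3 had 0.730, 0.935 and 3.07 FPKM in knockdown libraries 1 to 3, against 7.77, 3.42 and 2.92 FPKM in control libraries 1 to 3, and the groups overlapped (log2 change -1.16, limma adjusted p 0.375), with -0.65 when control library 1 and knockdown library 2 were left out. The gene higher at that unadjusted p was Acvr2a, a type II receptor, named after its values were seen, with 16.3, 12.9 and 18.6 FPKM in knockdown libraries 1 to 3, against 10.7, 9.68 and 12.6 FPKM in control libraries 1 to 3, and groups apart. Without control library 1 and knockdown library 2, 2 of the 21 were higher and 3 lower, and the median was -0.096. The count was 0 higher and 8 lower without knockdown library 3, and 3 higher and 2 lower without knockdown library 2. It was 0 higher and 2 or 3 lower without any other single library. Over all 13450 tested genes, 1146 were higher and 1431 lower without knockdown library 3, and 1014 and 1129 without knockdown library 2. Leaving out knockdown library 3 gave a list median of -0.46, and leaving out knockdown library 2 gave -0.11.

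The BMP signal carriers and targets had 0 higher and 1 lower of 13 tested at that p, with a median of -0.11, which was 0.050 without control library 1 and knockdown library 2. The lower one was Id3, an inhibitor of helix-loop-helix factors that BMP signalling induces. It had 118, 52.8 and 126 FPKM in knockdown libraries 1 to 3, against 168, 154 and 170 FPKM in control libraries 1 to 3, with groups apart (log2 change -0.82, limma adjusted p 0.390), and a log2 change of -0.42 without knockdown library 2. Its relative Id1 had 26.1, 13.04 and 12.1 FPKM in knockdown libraries 1 to 3, against 33.3, 20.0 and 21.2 FPKM in control libraries 1 to 3, and the groups overlapped (log2 change -0.56, limma adjusted p 0.527). The Id1 estimate was -0.048 with library quality weights. Leaving out knockdown library 1 gave -0.89, leaving out knockdown library 3 gave -0.37 and leaving out control library 1 gave -0.34. Smurf2, a ubiquitin ligase for SMAD proteins, had 51.4, 35.6 and 56.8 FPKM in knockdown libraries 1 to 3, against 36.1, 38.4 and 37.7 FPKM in control libraries 1 to 3. Knockdown library 2 was the lowest of the 6 and the other knockdown libraries the highest (log2 change 0.32, limma adjusted p 0.552, with 0.52 without knockdown library 2 and 0.19 without knockdown library 3). The list's count was 2 higher and 1 lower without knockdown library 2, 0 higher and 2 lower without knockdown library 1, and 0 in each direction without any 1 control library.

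Transcription factors of the programme gave 0 higher and 2 lower of 14 tested at an unadjusted p under 0.05, with a median of -0.34, which was -0.15 without control library 1 and knockdown library 2, with 1 higher and 0 lower. Sox9 was one of the lower pair. Snai2, a zinc finger repressor, was the other, with 5.15, 7.05 and 9.16 FPKM in knockdown libraries 1 to 3, against 23.7, 10.4 and 10.3 FPKM in control libraries 1 to 3. Control library 1 stood highest, with groups apart (log2 change -0.89, limma adjusted p 0.385, and -0.51 without control library 1). Twist2, a helix-loop-helix factor, had 9.70, 5.59 and 11.2 FPKM in knockdown libraries 1 to 3, against 10.2, 13.1 and 13.4 FPKM in control libraries 1 to 3, and the groups overlapped (log2 change -0.47, limma adjusted p 0.507, and -0.20 without knockdown library 2). Cbfb, the partner subunit of RUNX proteins, had 32.9, 21.2 and 38.2 FPKM in knockdown libraries 1 to 3, against 18.9, 23.2 and 25.02 FPKM in control libraries 1 to 3. Like Runx2, it was above every control in knockdown libraries 1 and 3 only (log2 change 0.41, limma adjusted p 0.530, with 0.65 without knockdown library 2 and 0.24 without knockdown library 3). The list had 0 lower genes when knockdown library 1, knockdown library 2 or control library 1 was left out, 3 without knockdown library 3, and 1 without control library 2 or 3.

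Phosphate and pyrophosphate genes gave 1 higher and 1 lower of 8 tested at that p, with a median of -0.21, which was -0.077 without control library 1 and knockdown library 2. Nt5e, the ecto-5'-nucleotidase CD73 that forms adenosine from AMP, had 11.8, 17.4 and 20.2 FPKM in knockdown libraries 1 to 3, against 23.3, 37.0 and 41.1 FPKM in control libraries 1 to 3. The groups were apart (log2 change -0.98, limma adjusted p 0.301, and 0.0436 with library quality weights). Slc20a1, the sodium-phosphate carrier PiT-1, went the other way, with 91.5, 62.3 and 79.5 FPKM in knockdown libraries 1 to 3, against 33.3, 53.2 and 57.7 FPKM in control libraries 1 to 3. The groups were apart (log2 change 0.70, limma adjusted p 0.362, and 0.46 without control library 1). Enpp3, a relative of Enpp1, had 7.004, 2.08 and 7.43 FPKM in knockdown libraries 1 to 3, against 9.41, 10.5 and 8.62 FPKM in control libraries 1 to 3, with groups apart (log2 change -0.83, limma adjusted p 0.445, and -0.35 without knockdown library 2). The list's count was 0 higher and 1 lower without knockdown library 1 or control library 1, and 0 higher and 2 lower without knockdown library 3.

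Calcification inhibitors and vitamin K cycle genes, a list that holds Mgp and Enpp1, gave 0 higher and 1 lower of 9 tested, with a median of -0.61, which was -0.37 without control library 1 and knockdown library 2. Fbln5, an elastic fibre protein, had 55.6, 47.9 and 68.5 FPKM in knockdown libraries 1 to 3, against 175, 80.7 and 74.2 FPKM in control libraries 1 to 3, with groups apart and control library 1 the highest (log2 change -0.83, limma adjusted p 0.392, -0.44 without control library 1, and -0.32 with knockdown library 2 left out as well). Tnfrsf11b encodes osteoprotegerin, whose loss calcifies arteries in mice. It had 26.0, 2.96 and 31.0 FPKM in knockdown libraries 1 to 3, against 44.7, 50.7 and 50.6 FPKM in control libraries 1 to 3, with groups apart and knockdown library 2 the lowest (log2 change -1.72, limma adjusted p 0.406, and -0.75 without knockdown library 2). Gas6, a vitamin K-dependent ligand, had 71.4, 137 and 86.7 FPKM in knockdown libraries 1 to 3, against 279, 132 and 128 FPKM in control libraries 1 to 3, and the groups overlapped (log2 change -0.82, limma adjusted p 0.428, and -0.45 without control library 1). The list's lower genes numbered 2 without knockdown library 1 or 2, and 0 without control library 1.

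**Figure D4:**
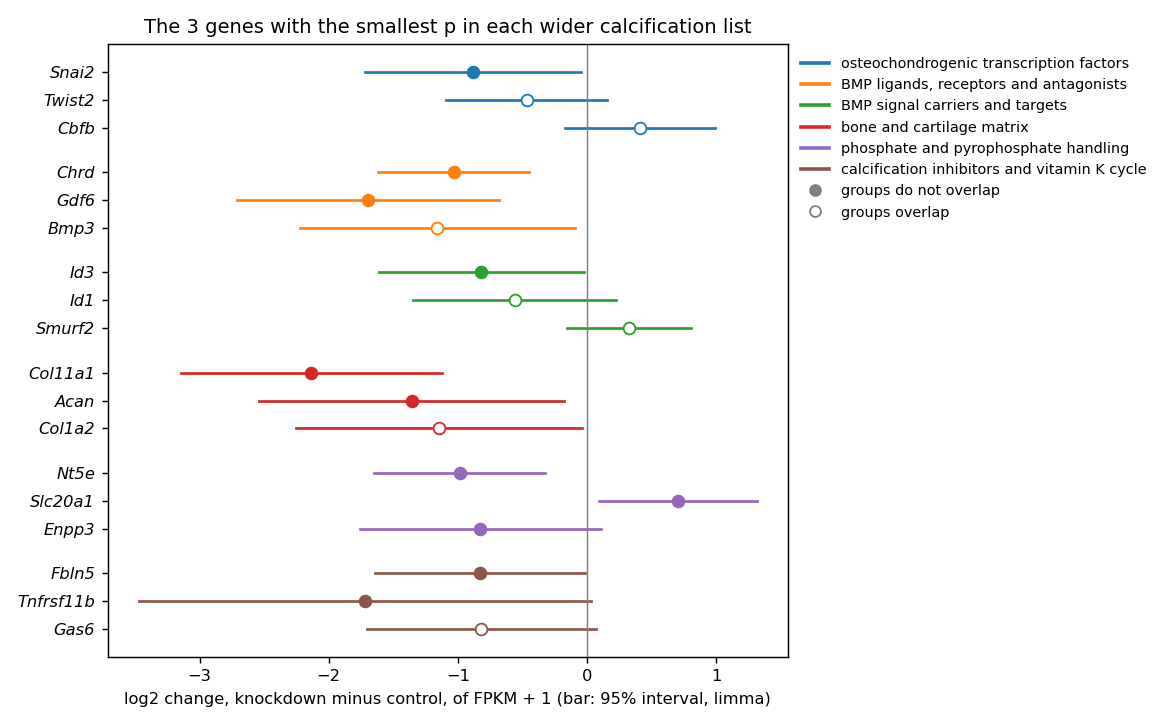
Log2 change, knockdown minus control, of FPKM + 1 with its 95% limma interval for the 3 genes with the smallest p in each of the 6 lists, the members left out; filled points mark genes whose groups do not overlap. Slc20a1, Cbfb and Smurf2 lie above 0 and the other 15 genes below it.

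Nat10's mark was read from the authors' ac4C peak lists, 1 per library, which give a p-value for each peak and no enrichment. The knockdown lists held 3111, 2658 and 2592 peaks, against 29998, 29593 and 3479 peaks in the control lists. In control lists 1 and 2, 26881 and 27673 rows carried a single shared p, 0.045 in list 1 and 0.046 in list 2, so both counts are given with and without those rows. Members with a peak in at least 1 list numbered 5 in knockdown and 8 in control, or 6 in control without the shared-p rows. In at least 2 of 3 lists they numbered 4 in knockdown and 5 in control, and without the shared-p rows 4 in knockdown and 1, Spp1, in control. The share of all tested genes in at least 2 of 3 lists was not computed, so these counts cannot be set against it. Over all tested genes, 33.0% had a peak in a knockdown list and 59.0% in a control list, or 34.0% without the shared-p rows. Msx2 and Alpl, listed in control only, are among the members counted but not among the tested genes. The member counts and those shares thus have unlike bases. Runx2 and Sox9 were in all 3 knockdown lists, as were 4.72% of tested genes, and Spp1 was in all 3 control lists, as were 7.37%. No member was in all 3 control lists and no knockdown list, which 1.81% of tested genes were. Peak p-values are the authors' own, and the lists hold no read depth, so no test between the groups was made.

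Runx2 was listed in the 3 knockdown lists and in no control list, a pattern that 0.201% of tested genes (27 genes) had, or 0.297% (40 genes) without the shared-p rows. Its knockdown peaks lay at chr9:18771839-18772018 (p 0.0085) in list 1, chr9:18769899-18770078 (p 0.0072) in list 2 and chr9:18769690-18769839 (p 0.003) in list 3, on the plus strand. These peaks shared no base, with gaps of 1760, 1999 and 59 bases between pairs, and they ranked 2681 of 3111, 2164 of 2658 and 2156 of 2592 by p. They were among the weaker entries of each list, at separate places in the gene. Of the 27 genes with the pattern, 24 had peaks that overlapped in some pair of lists, 13 of these in every pair, and 3 had none. Sox9 was listed in the 3 knockdown lists and in control list 3. Knockdown lists 1 and 3 both had a peak from chr10:101292449, of 181 and 211 bases, and each shared 91 bases with a control peak at chr10:101292329-101292539. The knockdown list 2 peak, chr10:101291310-101291789, shared none with these, nor did a second control peak at chr10:101293199-101293349.

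Spp1 showed one position in 4 of the 6 lists. Its peak began at chr14:6673686 on the minus strand in knockdown list 3 (p 1e-200) and in control lists 1 to 3, where p was 1.3e-61 in list 2 and listed as 0 in lists 1 and 3. Knockdown lists 1 and 2 held no Spp1 peak, and the input libraries of those numbers had the lowest Spp1 levels. The part of the input level in this was not tested. Knockdown list 3 had a further Spp1 peak at chr14:6674103-6674400. Mgp was listed in knockdown lists 2 (p 7.1e-08) and 3 (p 5e-57) and in control list 3 (p 1e-171), with peaks that overlapped in every pair. The peak at chr4:170856751-170857103 in knockdown list 3 and the one at chr4:170856751-170857074 in control list 3 shared 324 bases, and covered 52.2% and 47.9% of the gene's length. Both matrix genes were thus listed in both groups, at overlapping positions.

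Bmp4 was listed in knockdown lists 1 and 3 and in control list 3, at positions around chr15:20776144-20776384 that shared 151 to 241 bases between pairs; control list 2 held it with the shared p only, elsewhere in the gene, where control list 3 had a second entry. Bmp2 and Alpl were listed in control lists 1 and 2 and there only with the shared p. Msx2 was listed in the same 2 control lists, with 1 peak of its own p (0.017). In control list 2 the rows for Msx2 and Alpl covered 100% of the gene length, although Msx2 had 1 input fragment and Alpl 0 in control library 2. Enpp1 had 1 peak, in control list 1 (p 0.0025). The plot of listed peaks sets the open circles of the shared-p rows against the others.

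**Figure D5:**
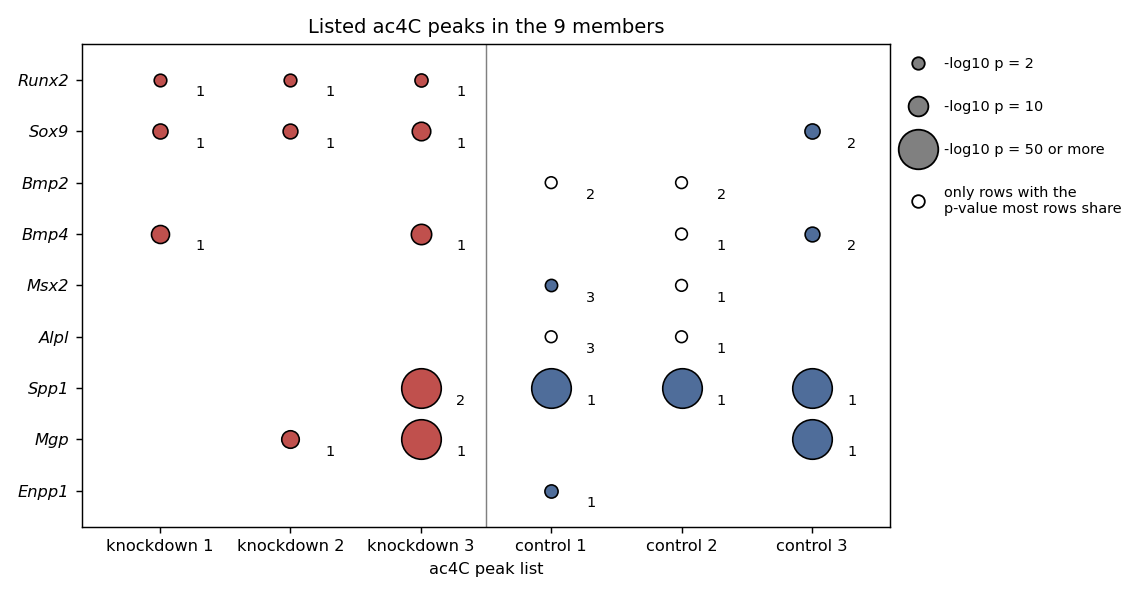
Listed ac4C peaks of the 9 members in the 3 knockdown and 3 control lists; circle area follows -log10 of the smallest p (to 50), open circles mark genes with only rows of the shared p, and the number beside a circle counts the peaks. Runx2 has circles in the 3 knockdown lists only, all small, and Spp1 has large circles in the 3 control lists and in knockdown list 3.

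None of the 9 members had a NAT10 RIP peak. The 3 RIP lists held 2268, 1993 and 1773 peaks in 586, 563 and 548 genes, and 5.93% of the 13450 tested genes (798 genes) had a peak in at least 1 list. Nat10's own transcript had none. Genes with a peak were long, with a median length of 4508 bases, against 1965 for tested genes without one and 3194 for the 7 tested members. Of genes up to 1000 bases, the class of Mgp, 0.469% had a peak, and of genes between 4000 and 8000 bases, the class of Runx2 and Enpp1, 17.1%. On the wider lists, 11 of the 96 genes other than members had a RIP peak, and all 11 were among the 67 tested. They were Runx1, Bmp1, Smad7, Smurf1, Smurf2, Slc20a2, Enpp3, Col1a2, Col11a1, Postn and Gas6. Genes with a peak also had a higher input level, with a median of 32.6 FPKM over the 6 libraries, against 9.14 FPKM for tested genes without one and 62.6 FPKM for the 7 tested members. The RIP depth is unknown.

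The genes most like the leading members over the 6 input libraries were named by Pearson's r of log2(FPKM + 1), as a description. For Mgp, the member with the highest mean, they were Rbmx (r = 0.995), Dclre1a (0.991) and Dolk (0.989), and 63 genes reached 0.95. For Spp1, the member with the smallest p, they were Cyb5r1 (r = 0.997), Numbl (0.990) and RGD1563917 (0.985), and 84 genes reached 0.95. Among members, Bmp4 was closest to Mgp (0.923) and Sox9 to Spp1 (0.826). The 6 points share their libraries, which differ in group and in depth.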

How the data were processed

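Input RNA, ac4C pull-down RNA and NAT10-bound RNA were sequenced from rat primary aortic smooth muscle cells, and groups came from sample titles. The authors deposited FPKM for the input libraries. The submitters' processing notes name DESeq2, HOMER 4.10.4, featureCounts 1.6.3, HISAT2 2.1.0 and cutadapt 2.5, with no role, and rn6 as the one rat build. The sources used here do not give the peak caller. The authors deposited 1 ac4C peak list per library with a p-value per peak, and 1 NAT10 RIP list per library with a log2 enrichment and p-values per the file headers. Peak coordinates follow the lists (start plus 1) and were not moved to another build; promoters are RefSeq, GRCr8.

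Of the 32883 genes, 11482 were 0 throughout, and the 13450 whose mean was 1 FPKM or more entered the test. Groups were compared by limma 3.58.1 (R 4.3.3) after log2(FPKM + 1), two-sided, with the variance trended on the mean and no covariate; p was adjusted by Benjamini-Hochberg, with a threshold of 0.05. The pseudocount makes changes of low genes look smaller. Whole fragments were recovered for all 21401 genes above 0 (relative tolerance 2e-08), and for 0 of 500 altered genes, and entered a voom fit as an alternative. The limma script was run on simulated counts in which no library stood apart, unlike these. That run checks the code and says nothing of power in these data. Members were matched by symbol and peaks by Ensembl ID. Dlx6, Ahsg and Pecam1, on the lists, were not used here. Genes named were Nat10, the members, the 3 with the smallest p per list and the 3 most like Mgp and Spp1. Cell type markers and genes with a RIP peak are named beside them. Those markers, Sparc, Col1a1, Acta2 and Acvr2a were picked after their values were seen. The members and lists were chosen with earlier results of these data known, and each list is described by counts and medians, with no set test. Tables were written with Python 3.11.15 and pandas 2.3.3.

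Alternatives were other pseudocounts, filters and scalings, library quality weights, voom, a replicate block, and each library left out. In another, control library 1 and knockdown library 2, which stood apart from their groups, were both left out. The fragment-total scaling, the averaging of control libraries 2 and 3, and 1 joint setting for ac4C peaks were chosen after seeing the data. Precision is given by the spread between 3 libraries per group; the depth of the peak lists is unknown.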

Additional observations from a re-analysis of the deposited data

How the results depend on the processing

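No member was called under any of 16 alternatives. Sox9, Spp1, Mgp and Enpp1 kept a negative sign in all of them. The other filters and the replicate block cannot move a gene's fitted change, so the sign was fixed there. Over all genes, library quality weights called 120 higher and 215 lower, and 4 lower genes of the wider lists; these weights were 1.35, 0.235 and 0.416 for knockdown libraries 1 to 3, and 0.559, 3.80 and 3.57 for the controls. Voom on the recovered fragments called 0 genes in either direction. Leaving out 1 library called 0 to 1 higher genes (1 without knockdown library 2) and 0 to 1 lower genes (1 without control library 3), and gave a median member change of -1.04 to -0.05. With 1 library left out, the change ran over -0.20 to 0.44 for Runx2, -0.10 to 0.74 for Bmp2 and -0.97 to 0.070 for Bmp4. The sign turned for Runx2 without knockdown library 3 (-0.20) or control library 1 (-0.031), for Bmp2 without knockdown library 1 (-0.10), and for Bmp4 without knockdown library 2 (0.070) and with control library 1 also left out (0.024); the cause was not tested. Scaling to fragment totals moved the median of all genes to 0.12 and gave -1.46 for Sox9, -0.88 for Spp1 and -0.76 for Mgp. Control libraries 2 and 3 averaged as 1 sample gave -1.47 for Sox9 and -0.85 for Spp1, with adjusted p-values of 0.816 and 0.825. Over all genes, that setting called 0 in either direction.

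Members with a control ac4C peak numbered 5 with p under 0.01 and 5 when 2 of 3 lists were required, against 8 in any list. Requiring 2 of 3 lists left 1 without the shared-p rows, an alternative added after seeing the data. The knockdown count was 4 with those rows and without them. Shares of all tested genes under the p bound of 0.01 and the rule of 2 of 3 lists were not computed.

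Same-numbered libraries did not deviate together (r -0.21, -0.28 and 0.18), so the numbers were not taken as pairs. A replicate block called 0 genes in either direction, and an unadjusted p under 0.05 was reached by 500 as higher and 676 as lower. In this balanced design a block cannot move the fitted change, so the median of -0.61 under it says nothing of stability.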
